A study of Mus musculus with 2 samples.

Results

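The genes described here are 9 mouse genes of apolipoproteins and cholesterol efflux: the apolipoproteins Apoe, Apoc1 and Apoc2, the transporters Abca1 and Abcg1, the sterol sensor Nr1h3, the lipase Lpl, the transfer protein Pltp and the ubiquitin ligase Mylip. They were listed by name, and the probes were found by matching the RefSeq accession in the scanner files to a RefSeq gene table. Of the 9 genes, 8 had a matched probe, with 11 probes and 20 spots in all, among 20650 genes with a named probe. No probe was matched to Apoc2, which has no value here. All 8 were well above background on both arrays, as were 13476 of the 20650 genes. The list was drawn up with earlier results of these arrays known, so its values are a description.

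RNA came from osteoclasts, the multinucleated cells that resorb bone, grown from the bone marrow of female C57BL/6 mice. One group was wild type and the other Dnmt3a knockout, with 1 array each. Per the labels, nonadherent marrow cells were kept for 2 days in M-CSF, the growth factor of macrophages, and the adherent precursors were then given M-CSF together with RANKL, the cytokine that turns precursors into osteoclasts. The allele, any Cre driver, the age of the mice and the number of mice behind each array are not given in the sources used here. Each value therefore compares 2 arrays, with no replicate and no test, and the spread between cultures or mice is unknown.

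Macrophages and their relatives take up cholesterol with lipoproteins and cell debris, and they cannot break down its sterol ring, so they return it to the blood. Nr1h3 encodes LXRα, a nuclear receptor that binds oxidised cholesterol and, paired with a retinoid X receptor, switches on the genes of this export route. Its known targets include Abca1 and Abcg1, which pass cholesterol to lipid-poor apolipoprotein A-I and to high-density lipoprotein, and Apoe and the Apoc genes, whose products coat lipoproteins. They also include Pltp and Lpl, which remodel lipoproteins, and Mylip (also called Idol), which marks lipoprotein receptors for degradation. In osteoclasts, cholesterol supply is known to affect cell fusion and survival.

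Of the 9 genes, 6 had promoter windows in the RefSeq promoter table (GRCm38.p6), 9 windows in all: Abca1, Apoc2, Apoe, Mylip, Nr1h3 and Pltp. Only the 250 bases before each start were examined. LXR pairs bind a DR4 element, a pair of half-sites in the same direction with 4 bases between them. Both strands were searched for a DR4 element that allows variants of each half-site. Letter by letter the first half-site was A/G, G, G/T, T, C/T, A, and the second could also begin with C. This pattern was found in 70 of 32851 windows (0.213%). Among the 9 windows 1 held it, that of Abca1, from 67 to 52 bases before the start. The second half-site of that match begins with C, and the same pattern without this C was not searched. The exact form, AGGTCA repeated after 4 bases, was in 5 windows (0.0152%) and in none of the 9. The half-site AGGTCA alone, which the exact form contains, was in 14% of all windows and in 1 of the 9, that of Apoc2. A match describes the letters only, and binding was not measured. Abca1 is shown for the element, in capitals (GRCm38.p6, chr4:53159896-53160145, minus strand).
Abca1: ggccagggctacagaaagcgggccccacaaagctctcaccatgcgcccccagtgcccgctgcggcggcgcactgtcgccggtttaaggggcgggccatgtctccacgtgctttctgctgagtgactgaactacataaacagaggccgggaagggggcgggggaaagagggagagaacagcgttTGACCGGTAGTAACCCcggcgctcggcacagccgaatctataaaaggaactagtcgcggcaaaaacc
Read on the opposite strand, with the half-sites in capitals, the element is as follows.
Abca1 DR4: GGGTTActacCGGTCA

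Dnmt3a methylates cytosine followed by guanine (CpG), so the CpG count of each window is given too, although methylation was not measured. It ranged from 6 (Apoc2) to 23 (Mylip), against a median of 6 over all 32851 windows. Fewer CpG than in Mylip were found in 86.7% of all windows, and fewer than in Abca1 (20 CpG) in 82.1%. Mylip (chr13:45389492-45389741, plus strand) and the most upstream of the 3 Apoe windows (chr7:19699189-19699438, minus strand, 8 CpG), both of GRCm38.p6, are shown with CpG in capitals, the first as the densest of the 9 and the second for Apoe, the gene spotted 10 times.
Mylip: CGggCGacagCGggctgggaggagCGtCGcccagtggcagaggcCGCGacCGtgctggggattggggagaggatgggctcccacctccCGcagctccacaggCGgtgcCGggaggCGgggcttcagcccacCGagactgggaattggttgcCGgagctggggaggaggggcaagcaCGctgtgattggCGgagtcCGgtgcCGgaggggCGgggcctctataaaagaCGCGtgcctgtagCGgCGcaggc
Apoe: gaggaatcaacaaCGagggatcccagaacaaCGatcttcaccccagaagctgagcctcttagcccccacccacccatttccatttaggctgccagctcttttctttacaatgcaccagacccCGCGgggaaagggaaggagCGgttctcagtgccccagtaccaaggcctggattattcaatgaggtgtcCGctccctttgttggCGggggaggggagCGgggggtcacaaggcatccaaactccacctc

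Apoc1 was 2.03-fold higher on the knockout array, and none of the other 7 genes differed by 1.5-fold. Abca1, Pltp and Apoe were 1.25-, 1.22- and 1.22-fold higher, Nr1h3 was 1.14-fold higher, and Lpl was 1.14-fold lower. Abcg1 and Mylip were level between the arrays (0.02 and 0.01 on the log2 scale). The median difference over the 8 genes was 0.24, with 7 of 8 above 0, against a median of 0.01 and 51.9% above 0 over all 13476 measured genes. That median was 0.14 without the spots of the upper array rows, which leaves 7 genes, and -0.29 with spike-in scaling. Abcg1 and Mylip count among the 7 of 8 above 0 but were below 0 in the authors' deposited value table (-0.02 and -0.03). At least 1.5-fold higher were 1 of the 8 genes and 5.82% of all genes, and at least 1.5-fold lower were 0 of the 8 and 4.69% of all. At least 2-fold higher were Apoc1 and 0.824% of all genes. In the same RNA, 9 of 10 macrophage markers lay above 0 and 0 of 9 osteoclast markers did. Among the osteoclast markers Acp5 was level between the arrays, at -0.0005. In bulk RNA, fewer cells of a type and less RNA per cell cannot be told apart.

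A difference here is log2 of the processed signal, knockout minus wild type, after each array was divided by the 75th percentile of its 59305 non-control spots (584 and 572). The scanner error beside it combines what the scanner software gives for the spot on each array, with a median of 0.20. It is the software's own estimate for the reading of a spot and leaves out biological variation. For the bright probes given here it is nearly the same value, 0.20. Across 259 probes spotted repeatedly, the SD between spots had a median of 0.07. The scale matters more than either: 8 spike-in probes were higher on the knockout array by 0.53 (range 0.30 to 0.72), so scaling to them lowers every difference by 0.53 and moves the median of all genes to -0.52. Apoc1 then stays above 0 at 0.49, short of 1.5-fold, and the other 7 genes lie below 0. Of the genes past 1.5-fold 55.4% were higher on the knockout array, against 44.5% when the arrays were quantile normalized and 1.20% when they were scaled to the spike-in probes. The targeted gene, Dnmt3a, read 7042 in wild type and 1822 in the knockout, 3.79-fold lower on its 1 probe.

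**Figure D1:**
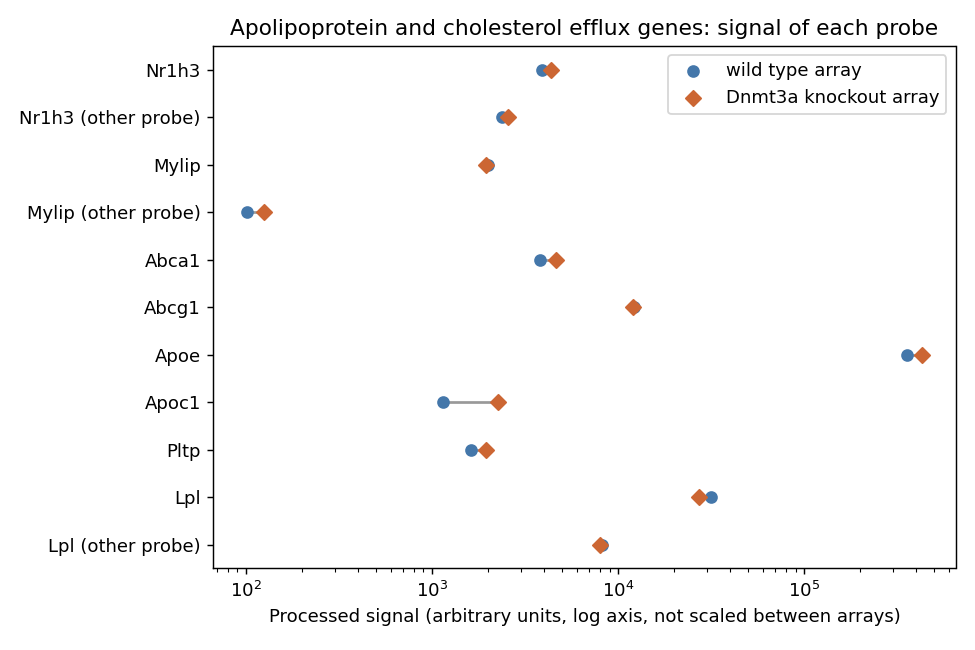
Processed signal (x, log axis, arbitrary units, not scaled between arrays) of each of the 11 probes on the wild type (circles) and Dnmt3a knockout (diamonds) array, 1 array each. The gap is widest for Apoc1 (1141 and 2265); positions of different probes along the axis are not comparable.

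**Figure D2:**
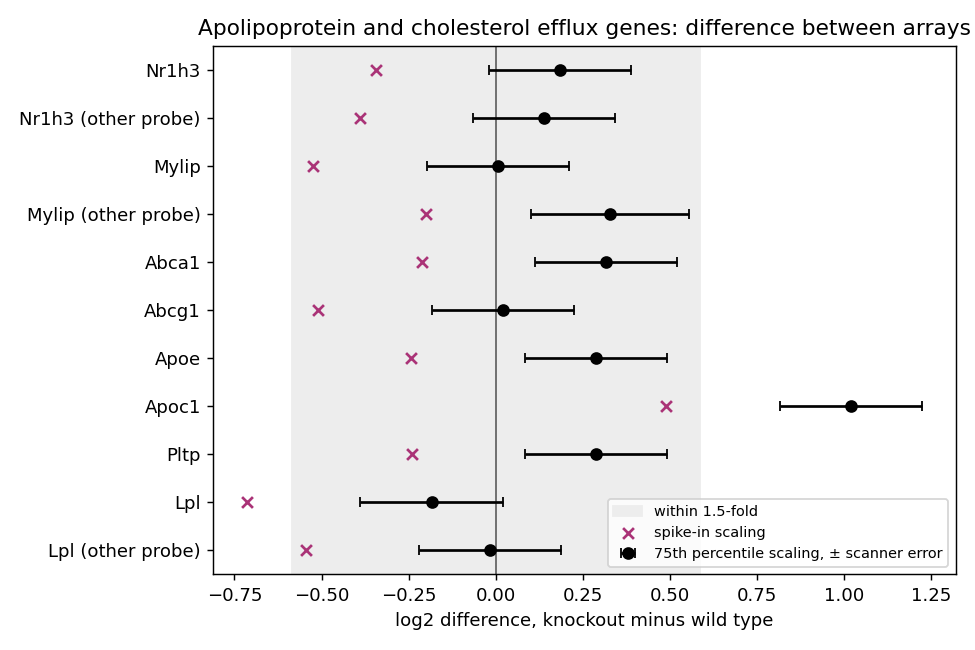
Log2 difference, knockout minus wild type, of each probe (points, bars ± scanner error) and the same with spike-in scaling (crosses); the grey band is 1.5-fold either way. Apoc1 at 1.02 lies outside the band and at 0.49 with spike-in scaling lies inside it; the crosses of the other probes are all below 0.

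Among the regulators, Nr1h3 read 3913 in wild type and 4357 in the knockout, a difference of 0.18 (scanner error 0.20). Its other probe read 2385 and 2571, a difference of 0.14. Both probes were slightly higher on the knockout array, by less than the scanner error. The sister receptor LXRβ, encoded by Nr1h2, differed by 0.06.

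Mylip read 1994 and 1960, a difference of 0.01 (scanner error 0.20), and 48.8% of measured genes had a lower difference. Its other probe was dim, at 102 and 125, and gave 0.33 (scanner error 0.23). The Mylip probes therefore differ by more than either error, and the brighter one puts both arrays level. Vldlr and Lrp8 are lipoprotein receptors that Mylip targets. Vldlr was at 0.33 (its other probe 0.09) and Lrp8, a dim probe, at -0.11.

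Of the efflux transporters, Abca1 read 3786 in wild type and 4620 in the knockout, a difference of 0.32 (scanner error 0.20, 1 probe). This was above the differences of 83.9% of measured genes and of 86.3% of the 2969 genes within 1 log2 unit of its level. Its spot lies in array row 75. The spots within 5 rows and 5 columns of it had a median difference of 0.09 (54 spots), and Abca1 was at 0.22 with that subtracted.

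Abcg1 read 12107 and 12025 before scaling and differed by 0.02 after it (scanner error 0.20, 1 probe). It sat in the middle of all genes, with 51.0% below it. The transporters for lipid-poor apolipoprotein A-I and for high-density lipoprotein thus gave 0.32 and 0.02, and the gap between them was not tested.

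Apoe, the apolipoprotein of macrophage-derived particles, was spotted 10 times on each array, which gives it a precision no other gene of the set has. Its signal ran from 322219 to 377264 on the wild type array (median 369612) and from 371671 to 462688 on the knockout array (median 444669). Each of the 10 spots was brighter on the knockout array, although the ranges over spots overlap. Dim positions on one array, such as rows 126 and 205, were dim on the other too. The scanner software had marked 2 spots as uneven or as outliers on either array, and over the other 8 the difference was 0.29 with an SD between spots of 0.04 (range 0.23 to 0.33). All 10 spots gave a mean of 0.29 as well. The spots share an RNA sample and a slide, so this SD says how well the arrays were read and nothing about other cultures. No spot was saturated.

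**Figure D3:**
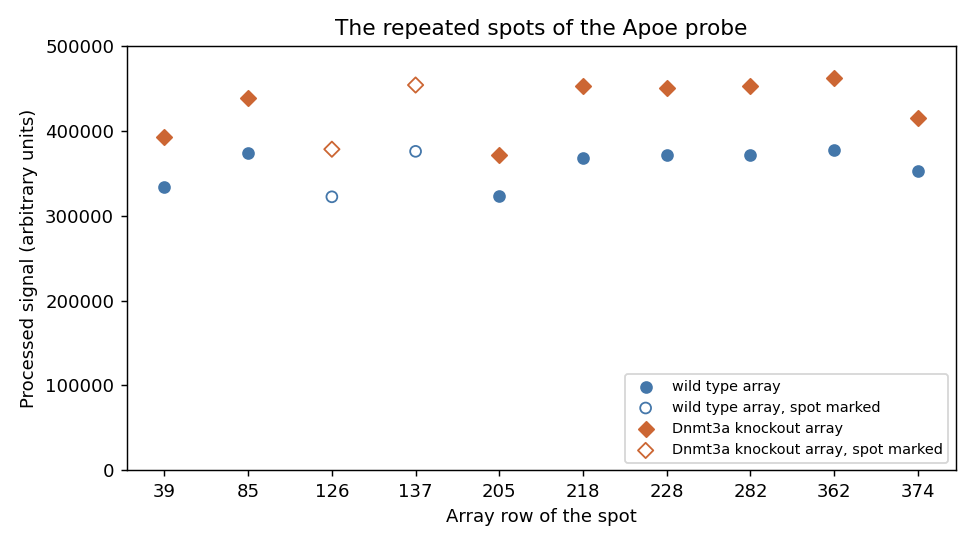
Processed signal (y, arbitrary units) of the 10 Apoe spots, by array row (x), on the wild type (circles) and Dnmt3a knockout (diamonds) array; open symbols are the 2 spots marked as uneven or as outliers on either array. Each spot is brighter on the knockout array, with differences of 0.23 to 0.33 on the scaled log2 scale.

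Apoc1, a small apolipoprotein that inhibits lipoprotein lipase and the receptor uptake of remnants, read 1141 in wild type and 2265 in the knockout. Its difference was 1.02 (2.03-fold, scanner error 0.20), above those of 99.2% of all measured genes and of 99.6% of the 3238 genes within 1 log2 unit of its level. It rests on 1 probe and 1 spot, at row 263 and column 140. The 59 surrounding spots had a median difference of 0.09, and with that subtracted Apoc1 was at 0.93, an adjustment chosen after the data were seen. Over all alternatives other than spike-in scaling it lay between 0.93 and 1.05.

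Apoc2, Apoc4, Apoc1 and Apoe follow each other on chromosome 7 in the order of the RefSeq gene table, so their neighbours were examined as well, a comparison chosen after the values were seen. Apoc4 was not well above background in wild type (signal 22.2) but was in the knockout (47.0, scanner error 0.47). That puts it at least 1.86-fold higher if reading error is left aside. The bound sets the knockout signal against the higher of the wild type signal and the lowest signal of any probe well above background there. It takes no account of the scanner error or of spike-in scaling, which lowers every difference by 0.53. Among the 8 protein-coding genes on either side of the cluster and the 2 others inside it, 13 of 18 could be measured on both, and their median difference was -0.01. Another of them, Cblc, was above background in the knockout alone, at least 2.04-fold higher by the same bound (20.7 and 51.7, scanner error 0.50). Of these 13, 2 were past 1.5-fold, Ceacam16 at -0.85 and Ceacam19 at 0.62, both at the far end of the window. Tomm40, the mitochondrial import pore gene next to Apoe, was at -0.34, and Clptm1, next to Apoc2, was at 0.08.

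Pltp, which moves phospholipid between lipoproteins, read 1623 and 1941, a difference of 0.29 (scanner error 0.20, 1 probe). It stood above 82.2% of measured genes, close to Apoe. Lpl, the lipase that frees fatty acids from triglyceride-rich lipoproteins, read 31664 in wild type and 27295 in the knockout, a difference of -0.18 (scanner error 0.20). Its other probe read 8237 and 7976, a difference of -0.02. It was the gene of the 8 below 0, and 24.0% of measured genes had a lower difference. With spike-in scaling Lpl was at -0.71, past 1.5-fold, a setting under which 5369 of all genes were at least 1.5-fold lower.

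**Figure D4:**
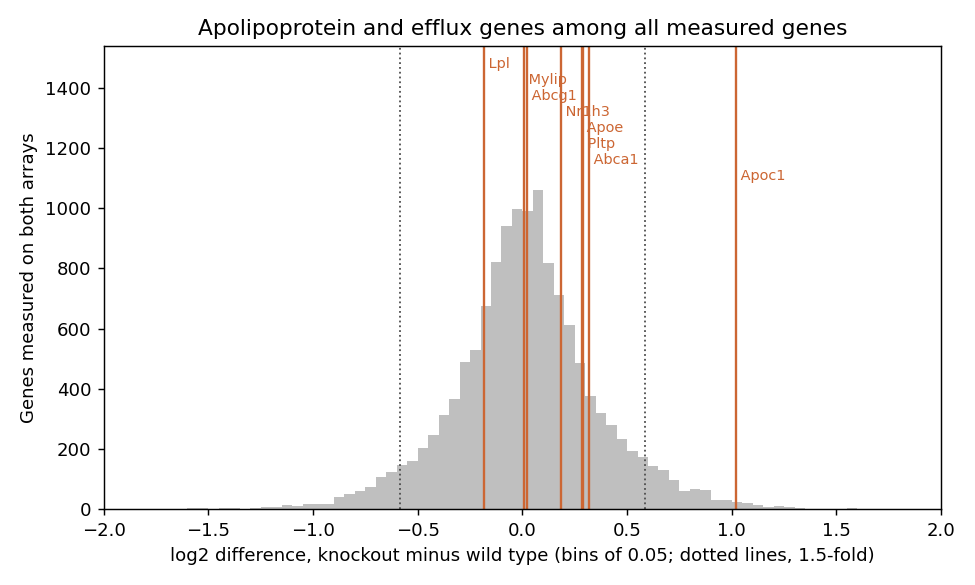
Number of genes (y) by log2 difference, knockout minus wild type (x, bins of 0.05), over the genes measured on both arrays; 24 genes beyond 2 on either side are not drawn. Lines mark the 8 apolipoprotein and efflux genes; Apoc1 at 1.02 lies in the right tail and the others lie between -0.18 and 0.32, inside the dotted lines of 1.5-fold.

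Other genes of the pathway were taken from lists chosen by role, with earlier results known. Named below are the genes past 1.5-fold or, where a list has none, genes among its 2 highest and 2 lowest. With spike-in scaling, 0 of the genes named here as higher stayed past 1.5-fold. Among partners of the LXR receptors, 13 of 14 were measured, 11 lay above 0, none passed 1.5-fold and the median was 0.12. The coactivator Ncoa1 (0.46, other probes 0.45 and 0.47) was highest. The retinoid X receptors Rxrb (-0.03) and Rxrg (-0.03, other probe 0.18) were lowest. Rxra, named after its values were seen, was at 0.32 on its brighter probe and at 0.86 on its other probe. All 13 were below 0 with spike-in scaling.

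Further LXR targets went both ways: 12 of 18 measured lay above 0, with a median of 0.17, 2 past 1.5-fold upward and 2 past it downward. Abca9, a transporter of the same family as Abca1, was at 0.73 (signals 838 and 1364), and Ppp1r3b, a glycogen-targeting phosphatase subunit, was at 0.66 (38826 and 60048). The stearoyl-CoA desaturases Scd1 (-0.71, signals 197 and 118) and Scd2 (-0.66, signals 6107 and 3782), which make monounsaturated fatty acids, were lower. With the normexp background correction Scd1 was at -0.50, short of 1.5-fold, and Scd2 at -0.61. That correction adds an offset of 50 to each intensity, which weighs most on dim probes. Srebf1, the LXR target that drives fatty acid synthesis, was at -0.24 (scanner error 0.22). Each of these 5 genes rests on 1 probe.

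Lipoprotein and lipid receptors had a median of 0.32, the highest of the pathway lists in this setting, with 15 of 18 measured above 0, 3 past 1.5-fold upward and 0 downward. These 3 were the scavenger receptor Stab1 (0.76, signals 34718 and 57580), the lysosomal membrane protein Scarb2 (0.65) and the sorting receptor Sorl1 (0.63), with 1 probe each. With spike-in scaling these 3 stayed above 0 and the list's median was -0.21. Sorl1 was short of 1.5-fold with normexp, at 0.56.

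Other apolipoproteins and lipase factors were mostly dim, and 15 of 29 were measured on both arrays. Their median was 0.10 with 12 above 0. Angptl2 was lower at -1.26 (signals 129 and 53), and Apom was higher at 0.61 with a scanner error of 0.37 (signal 33.4 in wild type). Neither stayed past 1.5-fold with normexp, where Angptl2 was at -0.58 and Apom at 0.25. Apom was also short of it with quantile normalization (0.43) and in the authors' value table (0.58). Apoa1 and Apob, the main apolipoproteins of liver and gut, were not well above background on either array.

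Genes of cholesterol transport and storage inside the cell had a median of -0.01 over 30 measured, with 14 above 0. Cyp27a1, which makes the LXR ligand 27-hydroxycholesterol in mitochondria, was at 0.84 (signals 320 and 561), and the lipid transporter Abca3 was at 0.69 (4856 and 7688). Soat2, a cholesterol-esterifying enzyme, was lower at -1.25 (217 and 89.6). Its sister enzyme Soat1, named after its value was seen, was at 0.42. SREBP targets and regulators, which respond to low cholesterol, had a median of -0.04 over 21 genes with 10 above 0 and none past 1.5-fold. Fdps (-0.18) was among the 2 lowest of them, and Insig1 (0.21) and Mvd (0.43) were highest. The single spots of Scarb2 and Apom, like those of Abca1 and the brighter Nr1h3 probe, lie in the upper array rows, without which 543 and not 784 of all genes were at least 1.5-fold higher and 418 and not 632 lower. Cyp27a1 was spotted 10 times, and without the 4 spots in those rows it was at 0.82. The list of other ABC transporters and ubiquitin partners of Mylip had a median of -0.04 over 9 measured, with 4 above 0 and none past 1.5-fold, from Abcb4 (-0.54) and Ube2d1 (-0.21) to Abcg2 (0.27) and Abca8b (0.41).

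**Figure D5:**
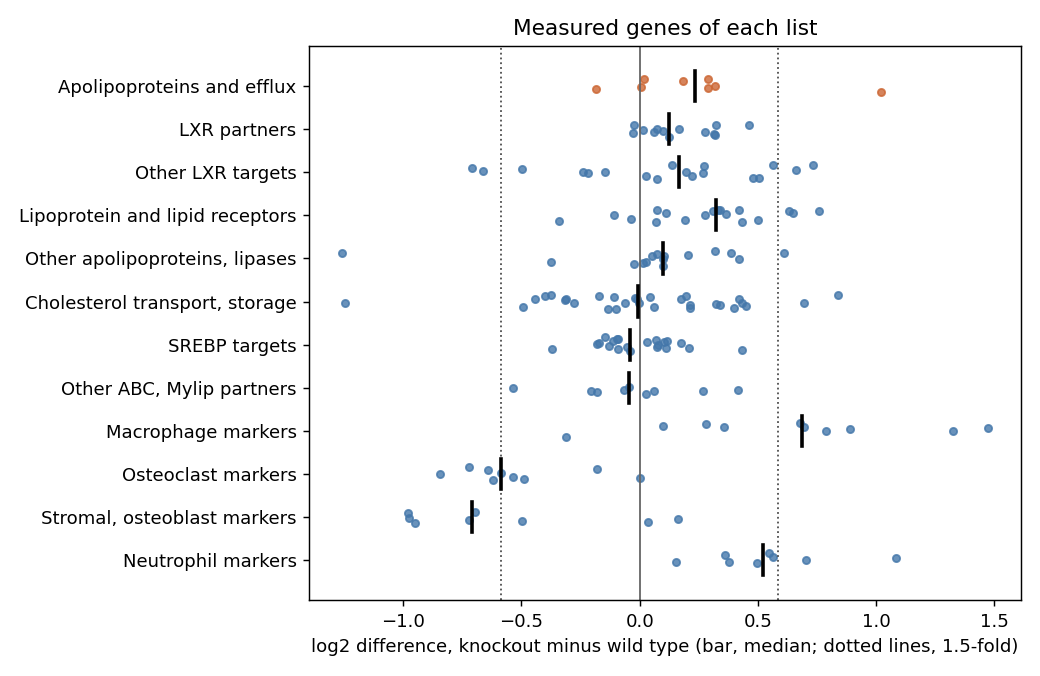
Log2 difference, knockout minus wild type (x), of each gene measured on both arrays (points, spread vertically for sight only) in each list (rows), with the list median (bar) and 1.5-fold (dotted lines). The apolipoprotein and efflux genes have a median of 0.24, lipoprotein receptors 0.32, macrophage markers 0.69 and osteoclast markers -0.58; with spike-in scaling these medians are -0.29, -0.21, 0.16 and -1.11.

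Markers of cell types differed between the arrays too. All 9 osteoclast markers were well above background on both arrays, and 0 of 9 lay above 0 (median -0.58, 4 at least 1.5-fold lower, summed scaled signal 1955 in wild type and 1710 in the knockout). Of the 9, Acp5 was level at -0.0005, and Ctsk at -0.18 lay within its scanner error of 0.20. Of 10 measured macrophage markers, 9 lay above 0 (median 0.69, 6 at least 1.5-fold higher, summed scaled signal 653 and 767). With spike-in scaling 6 of these 10 lay above 0, with a median of 0.16 and 2 at least 1.5-fold higher. All 8 neutrophil markers lay above 0 (median 0.52, sums 255 and 341), against 4 of 8 with spike-in scaling (median -0.01). Of 8 measured stromal and osteoblast markers 2 lay above 0 (median -0.71, sums 125 and 81.5).

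Lpl and Fabp4 are also adipocyte genes: of the defining adipocyte markers, Lep, Plin1, Cidec and Retn were not well above background on either array, Adipoq was so on the knockout array alone (signal 25.7), and Plin4 was at -0.83. Of 5 hepatocyte markers 0 were measured on both arrays, and Alb was above background in wild type alone (signal 76.0). The part of these cell types in the values of Apoc1, Apoe and the other genes was not tested.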

How the data were processed

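Total RNA of each genotype was hybridised to 1 single-colour (Cy3) Agilent mouse array. Per the file headers, the deposited intensity of each spot had its background subtracted and its spatial trend removed (Agilent Feature Extraction 10.10.1.1). The submitters' processing notes name version 9.1, and which version made the files is not settled. The authors' value table is this intensity times 1 factor per array (median 1.55 and 1.54, column medians 59.6 and 66.5). How the factor was chosen is unknown.

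Spots that the software marked (157 and 172) were dropped on both arrays. After 75th percentile scaling, a probe's spots were averaged as log2 values. Of 55649 probes, 27218 (48.9%) were named through RefSeq accessions (GRCm38.p6 table, for names, gene order and promoter sequence). The brightest probe stood for a gene, and other probes are given. A gene counted as measured when well above background on both arrays. Python 3.11.15, pandas 2.3.3, R 4.3.3 and limma 3.58.1 were used. The code that calls folds was tested on simulated 2-fold changes with small noise, which does not say how reliable the folds of these arrays are. The arrays' number limits the precision.

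The members, lists and naming rule were chosen with earlier results of these data known. Nr1h2, Vldlr, Lrp8, Srebf1, Apoc4 and the chromosomal neighbours lie outside the naming rule and were named for their role or position. The planned normexp correction used the median spot intensity in place of the mean. Some genes that the rule would name are not reported here. No p-values are given.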

Additional observations from a re-analysis of the deposited data

How the results depend on the processing

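Of 79 values of the 8 genes under 10 alternatives, 71 moved by less than the scanner error, and the 8 that moved more were those with spike-in scaling: Abca1 -0.21, Abcg1 -0.51, Apoc1 0.49, Apoe -0.24, Lpl -0.71, Mylip -0.52, Nr1h3 -0.34 and Pltp -0.24. Those 8 had to move, since spike-in scaling lowers each by 0.53. Some of the 71 could not move. Abcg1, Apoc1 and Pltp each have 1 unmarked spot below the upper rows. For them, keeping all spots, averaging probes or leaving out those rows changes nothing. Keeping all spots also changes nothing for Abca1, Nr1h3, Lpl and Mylip, nor does leaving out those rows for Lpl and Mylip. The authors' value table and scaling to the median of the bright spots each shift all genes by nearly the same amount, below the scanner error. The count of 71 is therefore no measure of reliability. Over all alternatives except spike-in scaling Abcg1 ranged from -0.02 to 0.04 and Mylip from -0.03 to 0.17, so their signs depend on the setting. Abca1 has no value without the upper array rows, where its spot lies. Subtracting the local median and using the median spot brightness minus its surroundings were added after the data were seen.

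With spike-in scaling the list medians moved to -0.57 for SREBP targets, -0.54 for intracellular transport, -0.21 for receptors, -0.29 for the 8 genes, -0.57 for other ABC transporters, -0.41 for LXR partners, -0.36 for LXR targets and -0.43 for other apolipoproteins. Among the other 72 list medians, that of the 8 genes ranged from 0.14, without the upper array rows, to 0.26, with normexp.

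Counts of all genes at least 1.5-fold higher and lower (784 and 632) were 490 and 291 with normexp, 65 and 5369 with spike-in scaling, 2564 and 1217 with no filter on dim probes, and 323 and 162 at or above the median level. They were 543 and 418 without the upper array rows. At 2-fold (111 and 98) they were 42 and 26, 18 and 1009, 1183 and 466, and 27 and 7 in the same order, and 65 and 48 without the upper array rows. Without those rows and at or above the median level fewer genes were tested. With no filter more were tested, among them genes not well above background. Spike-in scaling lowers every difference, and normexp adds an offset of 50 to each intensity. How far the number of genes, their level or the offset accounts for the counts was not tested. No paired analysis was possible because each genotype has 1 array. Signal over background limits the dim genes, among them Apom, Angptl2, Scd1, Apoc4 and the other probe of Mylip.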
